A study of Rattus norvegicus with 54 samples.

Results

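Uncultured tissue of the subventricular zone (SVZ) from rats with experimental autoimmune encephalomyelitis (EAE) was compared with differentiated neural progenitor cell (NPC) cultures grown from the same region of rats with EAE. The samples were chosen by their titles, and 6 of the 54 samples of the series qualified, 3 biopsies and 3 cultures. The biopsies were profiled without culture, and their labels give no strain. The cultures came from Dark Agouti rats and were harvested after passage 2 and 5 days of differentiation. Every animal behind both groups had EAE, so disease is shared by the samples compared. How and when EAE was induced is not given in the sources used here, nor are the differentiation medium, the limits of the dissection or the origin of each replicate. The p-values thus cover the variation among these arrays alone, part or all of which may be technical. For context, the same 2 kinds of sample from healthy (naive) rats, 3 arrays each, were compared in the same way, and the 3 undifferentiated EAE cultures of the region are quoted as levels only.

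The SVZ is a thin germinal layer along the wall of the lateral ventricle, between the ciliated ependymal cells that line the cavity and the striatum. Its stem cells resemble astrocytes and give rise to young neurons, which migrate to the olfactory bulb, and to oligodendrocytes. In culture such cells are expanded as progenitors with growth factors and then form astrocytes, oligodendrocytes and neurons when the factors are withdrawn. EAE is an induced autoimmune inflammation of the central nervous system used to model multiple sclerosis. Interferons, which are released in inflammation, act through STAT and IRF factors that bind a short promoter element and raise a large set of antiviral and antigen-presentation genes.

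RNA was hybridised to 1 Affymetrix array per sample. Levels are given as log2(signal + 16), in the order of replicates 1, 2 and 3, and a difference is the biopsy mean minus the culture mean on that scale, with the standard error of the fit. The offset of 16 makes differences of dim genes smaller than they would be on the plain log2 scale. Over the 45 background probe sets, which match no transcript, the median level was 5.28 in cultures and 5.23 in biopsies, so readings near 5 were no higher than the median background. Their full range was 4.05 to 9.24 in cultures and 4 to 8.84 in biopsies, so levels within it are not clearly above background. The median signal per array lay between 92.17 and 120.06, and 62.7% to 74.2% of probe sets exceeded a signal of 50. Arrays of 1 group correlated at 0.9915 to 0.9947 and biopsy with culture arrays at 0.8142 to 0.8292. The number of arrays, 3 per group, limits the precision.

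Replicate 3 of the naive differentiated cultures stood apart from its group. It correlated at 0.958 and 0.9545 with the other two, which correlated with each other at 0.9944. Its mean level over the myelin list was 9.73 against 7.32 and 7.14, over the microglia list 7.67 against 5.99 and 6.04, over the ependymal list 6.6 against 8.59 and 8.83, and over the interferon list 7.57 against 9.13 and 9.04. Over the cell cycle list it was 6.96 against 8.19 and 8.42, and over the oligodendrocyte progenitor list 9.57 against 8.59 and 8.91. Naive calls and medians are given with and without it, and naive differences taken without it are named as such. No array of the EAE groups stood apart in this way.

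Of 19377 probe sets tested, limma called 6023 higher in EAE biopsies (31.1%) and 8440 lower (43.6%), which makes 14463 called in all (74.6%). A call needed an adjusted p of at most 0.05 and a fold of at least 1.2. The 2 groups did not overlap for 15003 probe sets (77.4%). Most probe sets were called, and the counts below are to be read against these shares. At 4-fold or more, 1006 probe sets were higher and 570 lower. The median difference over all tested probe sets was -0.125. It became 0.07 when arrays were scaled to their 75th percentile, and the calls then split into 7914 higher and 6905 lower. With the median of each array set equal it was -0.31, with 4594 higher and 9926 lower. Differences smaller than about this shift depend on how arrays are scaled. RNA came from whole tissue and whole cultures, so fewer cells of a type and less RNA per cell cannot be told apart.

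**Figure D1:**
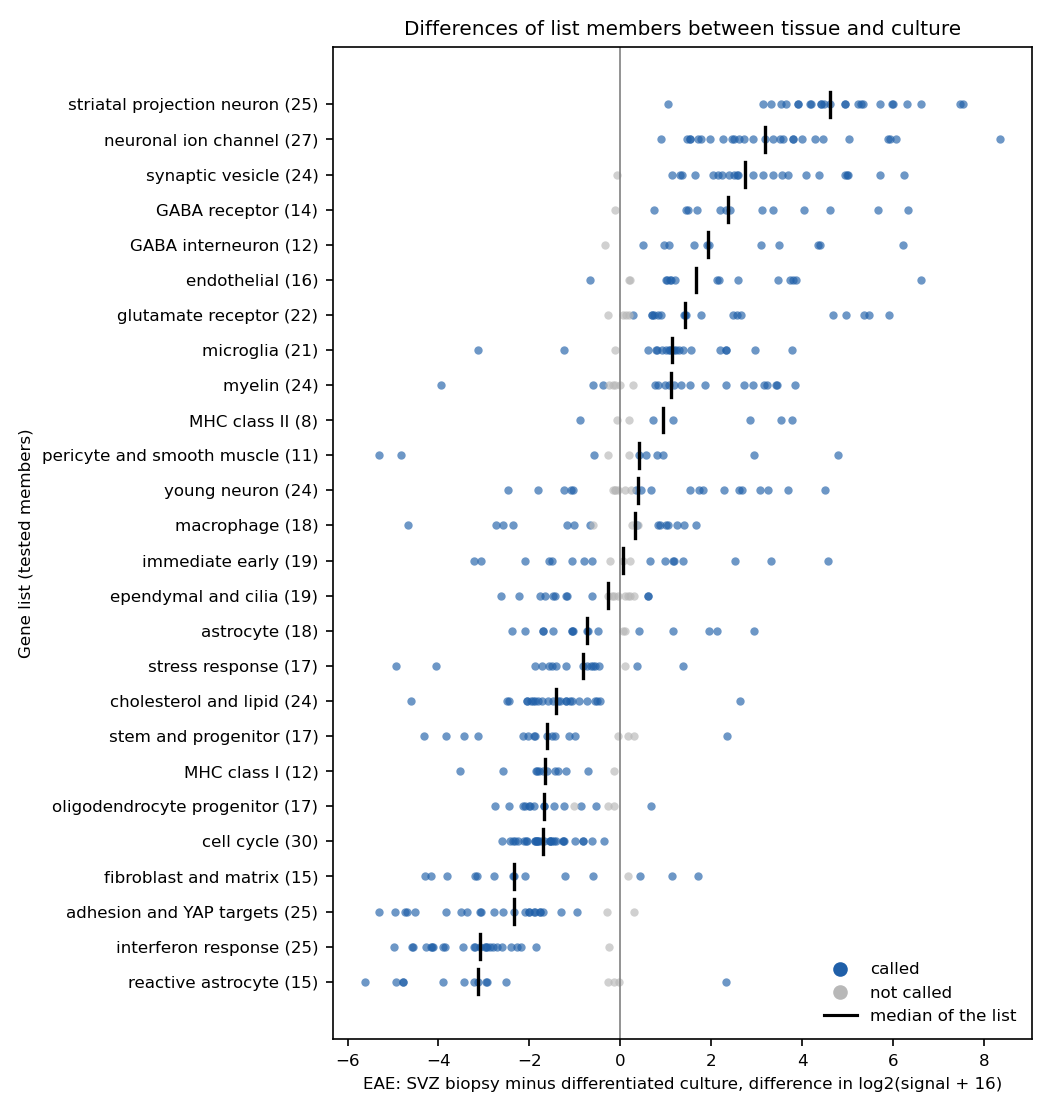
Differences in log2(signal + 16) between EAE SVZ biopsies and differentiated cultures for the tested members of each gene list. Each point is 1 gene, the bar is the list median, and positive values are higher in biopsies. Striatal and ion channel genes lie to the right of 0, as do synaptic genes except Slc17a7. Interferon and cell cycle genes lie to the left, as do adhesion genes except Plaur.

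Genes of mature neurons were far brighter in the tissue. Of 25 tested genes of striatal projection neurons, the main neurons of the tissue next to the SVZ, all 25 were higher in biopsies, against 31.1% of all tested probe sets, and their median difference of 4.62 was the largest of the 40 lists. How much of the striatum the biopsies held was not tested. Drd2, the dopamine D2 receptor, read 12.11, 12.32 and 12.26 in biopsies and 4.62, 4.55 and 4.91 in cultures. The culture readings were below the median background and the groups lay far apart, with a difference of 7.54 ± 0.12 (adjusted p = 5.7e-13). Bcl11b, a transcription factor of these neurons, read 13.75, 13.96 and 13.92 in biopsies and 6.39, 6.44 and 6.39 in cultures. Rgs9, a regulator of dopamine receptor signalling, read 12.81, 13 and 12.9 in biopsies and 6.28, 6.23 and 6.36 in cultures. Differences for Ptpn5, a striatal-enriched phosphatase, and Rasd2, a small GTPase, were 6.3 ± 0.12 and 5.99 ± 0.11. Undifferentiated EAE cultures were as dim as differentiated ones for Drd2, at 4.53, 4.93 and 4.92.

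Epha6, a receptor for ephrins, read 14.72, 14.85 and 14.87 in biopsies and 5.6, 5.71 and 5.51 in cultures. The culture readings lay within the range of the background probe sets, so the measured difference of 9.21 ± 0.1 gives no exact fold. Measured differences were 8.36 ± 0.13 for Cacng3, a subunit that escorts AMPA receptors, and 7.61 ± 0.097 for Htr2c, a serotonin receptor, whose culture readings lay in that range too. Slc5a7, which takes up choline in cholinergic neurons, read 10.94, 11.41 and 11.24 in biopsies and 4.05, 4.15 and 4.12 in cultures. Rasgrp1, an activator of Ras, did not follow Drd2 across the cultures. It read 10.73, 10.46 and 10.78 in undifferentiated cultures, 5.98, 6.08 and 6.04 in differentiated ones and 12.83, 13.08 and 13.01 in biopsies, so only the differentiated cultures were low among the EAE groups of the region.

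Transmitter release genes followed the same direction. Of 24 tested genes of synaptic vesicles and their fusion, 23 were higher in biopsies and 1 was not called, with a median difference of 2.75. Snap25, a protein of the vesicle fusion complex, read 12, 12.2 and 12.15 in biopsies and 6.29, 6.55 and 6.38 in cultures (difference 5.71 ± 0.11, adjusted p = 7.88e-13). Slc32a1, which loads GABA into vesicles, differed by 6.25 ± 0.18, and Syt1, the calcium sensor of release, by 4.99 ± 0.13. Slc17a7, which loads glutamate, was the member not called. It read 6.99, 7.4 and 7.01 in biopsies and 7.2, 7.14 and 7.25 in cultures, and the 95% interval of its difference ran from -0.33 to 0.2. Slc17a6, the other glutamate loader on the list, was not tested because its signal was low. All 27 tested genes of neuronal ion channels were higher in biopsies, with a median of 3.18. Kcna4, a potassium channel, differed by 5.93 ± 0.11, and Scn2a, a sodium channel, by 4.47 ± 0.12.

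Glutamate receptors split by subunit. Of 22 tested, 18 were higher in biopsies and 4 were not called, with a median of 1.42. Grin1, the obligatory NMDA receptor subunit, read 11.79, 11.98 and 12.03 in biopsies and 5.74, 5.92 and 6.38 in cultures, a difference of 5.92 ± 0.15. Grin2a and Grin2b, its partners, differed by 5.36 ± 0.11 and 4.97 ± 0.11. Gria2, the AMPA receptor subunit that limits calcium entry, read 11.33, 11.47 and 11.4 in biopsies and 11.23, 11.25 and 11.1 in cultures. It was bright in both groups, and its difference of 0.2 ± 0.099 was not called (adjusted p = 0.0795, interval -0.01 to 0.42). Gria3 likewise read 9.93 to 10.05 in biopsies and 9.52 to 10.03 in cultures, with an interval of -0.16 to 0.43. A p above the limit does not show that these levels are equal. Gria2 read 11.34, 11.12 and 11.05 in undifferentiated cultures.

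Among 14 tested GABA receptor subunits, 13 were higher in biopsies, with a median of 2.37. Among them Gabra5 differed by 4.61 ± 0.12 and Gabrb2 by 4.05 ± 0.14. Gabrg1 was not called, at 9.59, 9.49 and 9.6 in biopsies and 9.42, 9.77 and 9.82 in cultures. Of 12 tested interneuron genes, 11 were higher. Gad2, which makes GABA, read 11.87, 12.02 and 12.03 in biopsies and 5.69, 5.72 and 5.82 in cultures (difference 6.23 ± 0.1). The neuropeptides Npy and Sst differed by 3.49 ± 0.12 and 3.1 ± 0.097. Calb1, a calcium buffer, was bright in both groups at 10.92, 10.83 and 11.09 in biopsies and 10.83, 11.71 and 11.32 in cultures, and was not called (interval -0.74 to 0.06). Pvalb, Vip and Th were not tested.

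**Figure D2:**
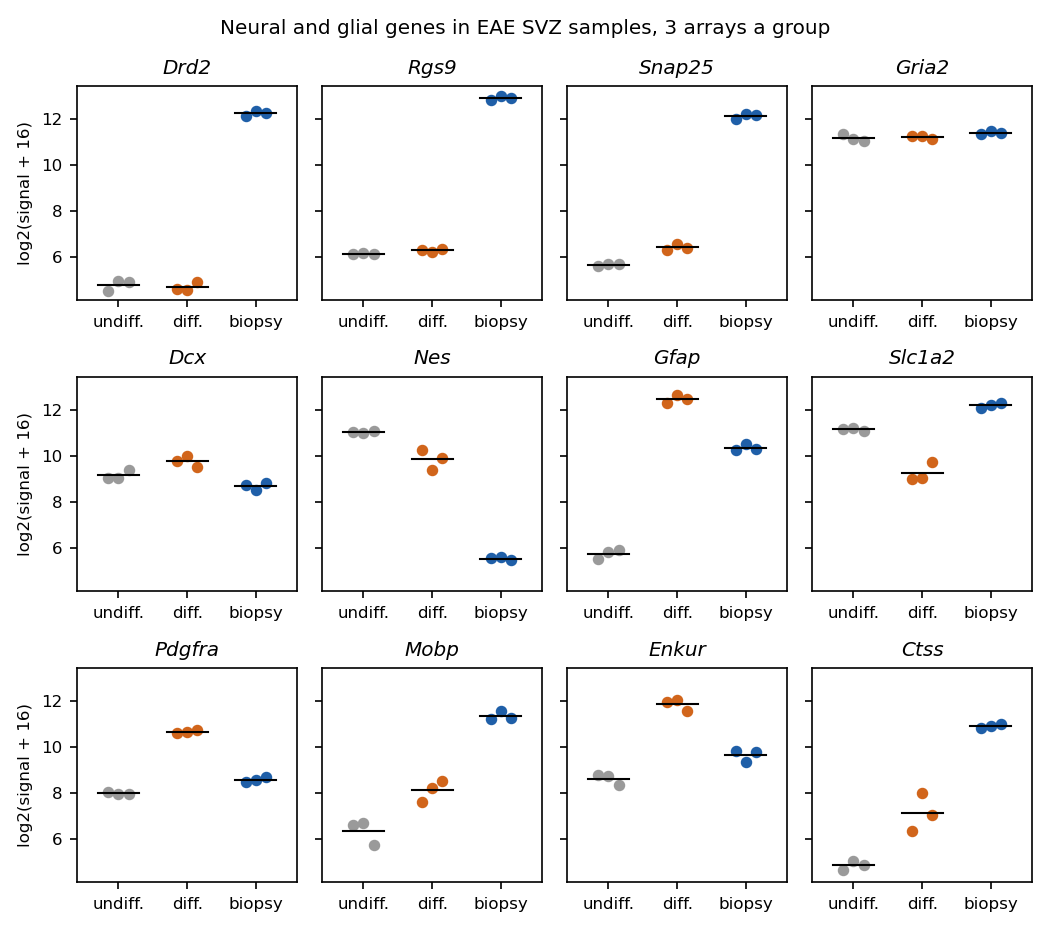
Levels of 12 cell type genes on each EAE SVZ array, in undifferentiated cultures, differentiated cultures and biopsies, as log2(signal + 16). Points are arrays and lines are group means of 3. Drd2, Rgs9 and Snap25 are high in biopsies only, Gria2 is bright in all 3 groups, and Nes is low in biopsies.

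Young neuron genes were divided. Of 24 tested, 13 were higher in biopsies, 5 lower and 6 not called, and the median was 0.4. Dcx, a microtubule protein of migrating neuroblasts, read 8.72, 8.5 and 8.81 in biopsies and 9.79, 9.99 and 9.53 in cultures. All culture arrays were above all biopsy arrays, with a difference of -1.09 ± 0.13 (adjusted p = 1.09e-05). Sox11 and Sox4, transcription factors of early neurons, differed by -1.04 ± 0.12 and -1.81 ± 0.1, and Dpysl3, which is active in growing axons, by -2.46 ± 0.11. Tubb3, a tubulin of neurons, had the opposite sign at 2.29 ± 0.12, and so did Stmn2 at 2.67 ± 0.12 and Dlx5, a factor of GABA neuron precursors, at 2.62 ± 0.13. Celf4, a splicing factor of neurons, had the largest difference in this list, 4.51 ± 0.11. Gap43, Elavl4, Sp9 and Dlx2 were not called.

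Genes of stem and progenitor cells were mostly higher in culture. Of 17 tested, 13 were lower in biopsies, 1 was higher and 3 were not called, with a median of -1.61. Nes, the filament protein nestin, read 5.56, 5.59 and 5.45 in biopsies and 10.23, 9.4 and 9.91 in cultures (difference -4.31 ± 0.17, adjusted p = 4.87e-10). Undifferentiated cultures read 11.05, 10.97 and 11.08, above all 3 differentiated ones, and no culture array came near the biopsies. Vim, another filament protein, differed by -3.12 ± 0.12, and Cd44, a receptor for hyaluronan, by -3.43 ± 0.11. Prom1, a membrane protein that ependymal cells also carry, was higher in biopsies by 2.34 ± 0.11. Pax6, Gsx2 and Hes5 were not called.

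All 30 tested genes of S phase and mitosis were lower in biopsies, with a median of -1.71. Cdk1, the mitotic kinase, read 6.1, 5.68 and 6.03 in biopsies and 8.79, 8.5 and 8.34 in cultures (difference -2.61 ± 0.14, adjusted p = 1.05e-08). Undifferentiated cultures read 8.19, 8.39 and 8.31, so the 2 culture stages overlapped. Top2a, which untangles DNA, and Plk1, a mitotic kinase, differed by -2.12 ± 0.15 and -2.24 ± 0.12. Aurkb, a kinase of chromosome segregation, read 10.83, 10.77 and 10.39 in cultures against 8.4, 7.92 and 8.56 in biopsies. Probes for Rrm2 and Ccnb2 are marked as cross-hybridising in the array annotation, so their differences of -2.42 ± 0.24 and -2.32 ± 0.18 may hold signal of related genes. Biopsy array 2 had the lowest level for each of Cdk1, Top2a, Plk1 and Aurkb among the biopsies.

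Astrocyte genes divided. Of 18 tested, 11 were lower in biopsies, 5 higher and 2 not called (median -0.72). Gfap, the astrocyte filament, read 10.27, 10.52 and 10.28 in biopsies and 12.28, 12.63 and 12.46 in cultures (difference -2.1 ± 0.12, adjusted p = 1.5e-08). It read 5.5, 5.81 and 5.9 before differentiation. Aqp4, a water channel of astrocyte endfeet, and Mlc1, a membrane protein found beside it, were likewise brighter in culture, by -1.47 ± 0.1 and -1.71 ± 0.1. Slc1a2, the main glutamate transporter of astrocytes, had the opposite sign. It read 12.07, 12.21 and 12.3 in biopsies and 8.99, 9.04 and 9.73 in cultures, a difference of 2.94 ± 0.17, and 11.18, 11.21 and 11.09 in undifferentiated cultures. Slc6a11, a GABA transporter, and Gjb6, a gap junction protein, were also higher in biopsies, by 1.16 ± 0.18 and 1.96 ± 0.12. Ndrg2 was among those not called.

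Of 15 tested genes linked to reactive astrocytes, 11 were lower in biopsies, 1 was higher and 3 were not called (median -3.12). S1pr3, a receptor for sphingosine 1-phosphate, read 6.2, 6.71 and 6.5 in biopsies and 12.11, 12.13 and 12.02 in cultures (difference -5.62 ± 0.13). It had read 6.67, 6.69 and 6.12 before differentiation. Timp1, an inhibitor of matrix proteases, read 6.19, 6.11 and 6.04 in biopsies and 10.99, 10.79 and 10.91 in cultures. Hspb1, a small heat shock protein, differed by -4.93 ± 0.17. C3, the central complement protein, was not called, and its culture arrays were widely spread at 7.11, 8.16 and 9.67 around biopsy values of 7.88, 8.71 and 8.27. Tm4sf1 was the member that was higher, by 2.32 ± 0.12. Lcn2 and Serpina3n were not tested.

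Oligodendrocyte progenitor genes and genes of mature myelin had opposite signs. Of 17 progenitor genes, 13 were lower in biopsies, 1 was higher and 3 were not called (median -1.67). Gpr17, a receptor of committed progenitors, read 8.19, 8.02 and 8 in biopsies and 10.54, 10.41 and 10.58 in cultures (difference -2.44 ± 0.1, adjusted p = 9.59e-10). Pdgfra, the growth factor receptor of progenitors, read 8.45, 8.55 and 8.67 in biopsies and 10.61, 10.63 and 10.73 in cultures. Olig2 and Olig1, lineage factors, differed by -2.13 ± 0.12 and -2.01 ± 0.096. Cspg5, a proteoglycan, was the member higher in biopsies, by 0.67 ± 0.11. Enpp6 was not called and depended on culture array 2, which read 9.5 where cultures 1 and 3 read 6.65 and 6.57.

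Of 24 myelin genes, 16 were higher in biopsies, 3 lower and 5 not called (median 1.13). Mobp, a myelin protein, read 11.19, 11.57 and 11.23 in biopsies and 7.62, 8.19 and 8.52 in cultures (difference 3.23 ± 0.19, adjusted p = 2.25e-08). Car2, a carbonic anhydrase of oligodendrocytes, differed by 3.85 ± 0.15 and Opalin, a late membrane protein, by 3.45 ± 0.18. Tspan2, a membrane protein of oligodendrocytes, read 10.47, 10.38 and 10.16 in biopsies and 9.84, 11.18 and 9.98 in cultures, and was not called (interval -0.59 to 0.6). Ugt8, which makes myelin galactolipids, was not called either (interval -0.58 to 0.29). Cryab, a small heat shock protein that oligodendrocytes and astrocytes carry, was lower in biopsies (-3.95 ± 0.16), as were Cnp (-0.61 ± 0.15) and Gsn (-0.39 ± 0.13). Gsn turned to 0.1 under quantile normalization, where it was not called. For several of these genes culture array 2 was the highest culture, and its mean over the list was 8.36 against 7.77 and 8.24.

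Genes of ependymal cells and motile cilia were mixed, beside 43.6% lower and 31.1% higher over all probe sets. Of 19 tested, 9 were lower in biopsies, 2 were higher and 8 were not called (median -0.26). With the median of each array set equal, none was higher, and under quantile normalization 4 were. Enkur, a protein of the cilium, read 9.8, 9.32 and 9.78 in biopsies and 11.96, 12.05 and 11.56 in cultures (difference -2.23 ± 0.16, adjusted p = 1.01e-07). Cfap52 and Tekt1, structural proteins of cilia, differed by -2.62 ± 0.18 and -1.76 ± 0.18. Undifferentiated cultures read 8.79, 8.72 and 8.34 for Enkur, below both other groups. Dnah11, a dynein heavy chain, and Cfap43 were the members higher in biopsies, by 0.6 ± 0.17 and 0.61 ± 0.2, and the Cfap43 groups overlapped. Dnah9, Dnah5, Dnai1 and Ccdc40 were not called. Biopsy array 2 was the lowest biopsy for Enkur, Cfap52 and Tekt1, and its mean over the list was 8.15 against 8.48 and 8.67. Foxj1, the master factor of motile cilia, has no probe set of its own here and was not analysed.

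Genes of the choroid plexus, which hangs in the ventricle, were mostly dim. Only 7 of 15 were tested, 3 higher and 3 lower (1 and 4 with quantile normalization), and Ttr, the transthyretin that choroid plexus makes in large amounts, read 6.87, 6.96 and 6.86 in biopsies and 6.33, 6.09 and 6.44 in cultures.

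Vessel genes were higher in the tissue. Of 16 tested endothelial genes, 13 were higher in biopsies, 1 was lower and 2 were not called (median 1.67). Slco1c1, a thyroid hormone and organic anion carrier of the blood-brain barrier, read 11.85, 11.75 and 12.03 in biopsies and 5.2, 5.19 and 5.37 in cultures (difference 6.62 ± 0.11, adjusted p = 5.7e-13). Flt1, a receptor for VEGF, and Tek, a receptor for angiopoietins, differed by 3.8 ± 0.12 and 3.87 ± 0.097. Slc2a1, the glucose carrier that endothelium and astrocytes share, was lower in biopsies (-0.67 ± 0.11). The haemoglobin gene Hbb-b1 read 10.48, 10.31 and 10.64 in biopsies and 5.35, 5.19 and 5.42 in cultures, with no overlap. Pericyte and smooth muscle genes fell on both sides, with 6 of 11 higher and 3 lower. Rgs5 and Vtn, which mark pericytes, were higher in biopsies by 4.79 ± 0.13 and 2.94 ± 0.13. Tagln and Cnn1, contractile proteins of smooth muscle, were lower, by 5.31 and 4.83 on average. Myh11 and Mylk, smooth muscle genes of the same list, were higher, by 0.42 (95% interval 0.1 to 0.75) and 0.57 (0.33 to 0.81). Smooth muscle genes thus had no common direction. Kdr, Pecam1 and Acta2 were not analysed here.

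Most listed adhesion and stress fibre genes, and most fibroblast and matrix genes, were higher in the cultures. Of 25 tested genes of cell adhesion, stress fibres and the YAP pathway, which responds to stiff surfaces, 23 were lower in biopsies and 2 were not called (median -2.34). Tagln read 7.07, 7.3 and 7.17 in biopsies and 12.72, 12.25 and 12.5 in cultures (difference -5.31 ± 0.13, adjusted p = 5.04e-12). Anxa2, a membrane-binding protein, and its partner S100a10 differed by -4.74 ± 0.13 and -4.79 ± 0.14, and Ccn1, a secreted target of YAP, by -4.51 ± 0.17. Of 15 tested fibroblast and matrix genes, 11 were lower in biopsies and 3 higher. Col1a2, a chain of type I collagen, read 6.51, 6.61 and 6.6 in biopsies and 11.26, 10.62 and 10.75 in cultures. Fn1, fibronectin, differed by -4.16 ± 0.15. Dcn, the proteoglycan decorin, had the opposite sign (1.72 ± 0.11) and read 4.59, 4.8 and 4.75 in cultures, near the median background. Lum, Postn and Mgp were not tested.

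Among brain matrix and basement membrane genes, 15 of 26 were lower in biopsies and 6 higher. Hspg2, perlecan, and Ncan, neurocan, differed by -2.92 ± 0.15 and -2.76 ± 0.1, whereas Hapln1, which links proteoglycans to hyaluronan, and Lamb1, a laminin chain, were higher by 3.2 ± 0.13 and 2.41 ± 0.12.

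The gene with the largest negative difference was Igfbp2, a secreted binding protein for insulin-like growth factors. It read 6.17, 6.33 and 6.55 in biopsies and 13.01, 12.03 and 12.35 in cultures (difference -6.12 ± 0.2, adjusted p = 9.87e-11), and 14.55, 14.38 and 14.32 in undifferentiated cultures. Igfbp3, another binding protein of the family, differed by -4.22 ± 0.22. Scn7a, an atypical sodium channel of glia, read 5.81, 5.9 and 5.91 in biopsies and 11.86, 11.48 and 11.8 in cultures, the reverse of the 27 neuronal channel genes above. Npvf, a neuropeptide precursor, read 5.97, 6.1 and 6.19 in biopsies and 11.67, 11.33 and 10.47 in cultures (difference -5.07 ± 0.23). Undifferentiated cultures read 6.2, 6.17 and 5.99 for it. In the naive cultures Npvf read 11.95, 11.61 and 6.16, the last in the replicate that stood apart.

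Interferon-stimulated genes were brighter in the differentiated cultures than in the diseased tissue. Of 25 tested, 24 were lower in biopsies and 1 was not called, with a median of -3.09. The promoters of the 4 genes with the largest differences among those holding a matching element are printed to show the sequence that interferon-activated factors recognise. Each window is 300 bases, from 250 before to 50 after the start site, from RefSeq on assembly GRCr8, written 5′ to 3′ along the gene, and capitals mark the core of the interferon-stimulated response element, GAAA, any 2 bases and GAAA, on either strand. Ifit3 lies at chr1:241527076-241527375, plus strand, with the match starting 44 bases before the start site. Oas1a lies at chr12:41330216-41330515, plus strand, with 2 overlapping matches 41 and 35 bases before it. Rsad2 lies at chr6:48788071-48788370, minus strand, with a match 147 bases before it, and Cxcl10 at chr14:15988816-15989115, plus strand, with a match 243 bases before it.
Ifit3: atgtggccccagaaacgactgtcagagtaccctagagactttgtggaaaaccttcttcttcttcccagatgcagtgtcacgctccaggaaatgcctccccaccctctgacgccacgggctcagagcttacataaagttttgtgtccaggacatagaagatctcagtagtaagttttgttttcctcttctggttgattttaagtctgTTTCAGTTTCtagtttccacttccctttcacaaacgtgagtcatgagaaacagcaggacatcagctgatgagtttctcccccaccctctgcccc
Oas1a: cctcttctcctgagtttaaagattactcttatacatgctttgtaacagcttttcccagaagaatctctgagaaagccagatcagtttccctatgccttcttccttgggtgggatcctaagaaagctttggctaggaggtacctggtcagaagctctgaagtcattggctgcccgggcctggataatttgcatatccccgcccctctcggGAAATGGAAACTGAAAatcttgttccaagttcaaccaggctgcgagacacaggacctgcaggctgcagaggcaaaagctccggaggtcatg
Rsad2: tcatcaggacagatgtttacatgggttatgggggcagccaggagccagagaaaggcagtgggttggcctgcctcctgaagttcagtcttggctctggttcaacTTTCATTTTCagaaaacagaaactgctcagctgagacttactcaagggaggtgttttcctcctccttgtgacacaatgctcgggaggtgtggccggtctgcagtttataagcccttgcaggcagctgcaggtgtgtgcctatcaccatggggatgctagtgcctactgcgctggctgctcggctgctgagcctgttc
Cxcl10: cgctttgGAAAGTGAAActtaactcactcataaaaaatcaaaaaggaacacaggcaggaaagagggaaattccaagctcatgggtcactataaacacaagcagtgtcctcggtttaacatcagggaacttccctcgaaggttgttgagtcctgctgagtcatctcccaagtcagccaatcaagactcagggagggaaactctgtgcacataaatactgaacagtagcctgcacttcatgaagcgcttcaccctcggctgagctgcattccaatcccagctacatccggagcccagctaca

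Ifit3, an antiviral protein, read 8.02, 7.38 and 7.47 in biopsies and 10.77, 12.98 and 11.94 in cultures (difference -4.27 ± 0.4, adjusted p = 1.31e-06). Isg15, a ubiquitin-like modifier, read 6.64, 6.58 and 6.79 in biopsies and 11.12, 12.12 and 11.69 in cultures (difference -4.97 ± 0.2, adjusted p = 5.08e-10). The groups were far apart for both, and culture array 1 was the lowest culture and array 2 the highest. The mean over the microglia list had the same order, 6.41, 7.33 and 6.83 in cultures 1 to 3, beside 9.72, 10.65 and 10.38 for the interferon list. In naive differentiated cultures 1 to 3 the means were 5.99, 6.04 and 7.67 for microglia and 9.13, 9.04 and 7.57 for interferon. Naive cultures 1 and 2 were close in both, so the opposite order there rests on naive culture 3, the array that stood apart. The part of microglia in these values was not tested. Oas1a, which senses double-stranded RNA, Rsad2, the antiviral protein viperin, and Mx1, an antiviral GTPase, differed by -4.17 ± 0.18, -4.14 ± 0.3 and -4.55 ± 0.26. Usp18, which removes the Isg15 modifier, differed by -4.59 ± 0.24. Cxcl10, a chemokine for T cells, was uneven between cultures, at 9.22, 11.88 and 10.8, against 6.61, 6.59 and 6.99 in biopsies. Undifferentiated cultures were low for Isg15, at 6.1, 6.04 and 6.25. Oas2, Ifitm1, Gbp4, Cxcl9 and Cxcl11 were not tested.

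That core was found in 16 of the 23 promoters held for the interferon list (69.6%), against 1312 of 33469 promoters in all (3.92%), and in 14 of the 19 promoters of list genes that were lower in biopsies. In genes of MHC class I presentation it was in 9 of 19 promoters (47.4%). A match describes these letters in this window and is not a measured site. In all, 21 motifs were searched on both strands against the promoters of all 40 lists, 840 pairs, and the pairs given here were picked after the matches had been counted. Of these pairs, 42 had at least 3 matching promoters and a share at least 2 times that of all promoters. The motifs spelled by letters, with the share of all promoters that held each, were GTTGCCNNG, the X-box core (5.16%), CCCGCC (32%), CACGTG (6.42%), TGACGTCA, the cyclic AMP element (1.83%), TTTGAA (18.3%), CCAAT (37.5%), GGAATG, the TEAD core (14.2%), GGAATGTG, which contains it (1.29%), TTGTTT (20.6%), AGGTCA (16.2%), GAATATTC (0.445%), TTTCCCGC (0.974%) and TTTGGCGC (0.493%), the last 2 for E2F, and CC and GG with any 6 bases between (71.5%). The longer ones, given by name, were the interferon core followed by CT, which contains that core (0.278%), a strict and a looser form of the full X-box, which overlaps its core (0.0986% and 0.409%), a sterol element (0.125%), a serum response element (0.0329%) and an NF-kappaB site (0.111%). The core followed by CT was in 9 of the 23 interferon promoters (39.1%). GGAATG, which the YAP partner TEAD binds, was in 14 of 26 promoters of the adhesion list (53.8%) and 7 of 19 of the reactive astrocyte list (36.8%), and TGACGTCA in 4 of 14 of the immediate early list (28.6%) and 3 of 10 of the interneuron list (30%). The sterol element was in 0 of 18 promoters of the cholesterol list. In the cell cycle list TTTCCCGC was in 3 of 25 promoters (12%), TTTGGCGC in 4 (16%) and TTTGAA in 12 (48%). The X-box core, the site of RFX factors of cilia, was in 4 of 27 of the ependymal list (14.8%). The X-box core had like shares in lists that are not about cilia, 3 of 20 for striatal projection neurons (15%), 3 of 22 for IGF and TGF-beta (13.6%) and 3 of 23 for neuronal ion channels (13%).

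**Figure D3:**
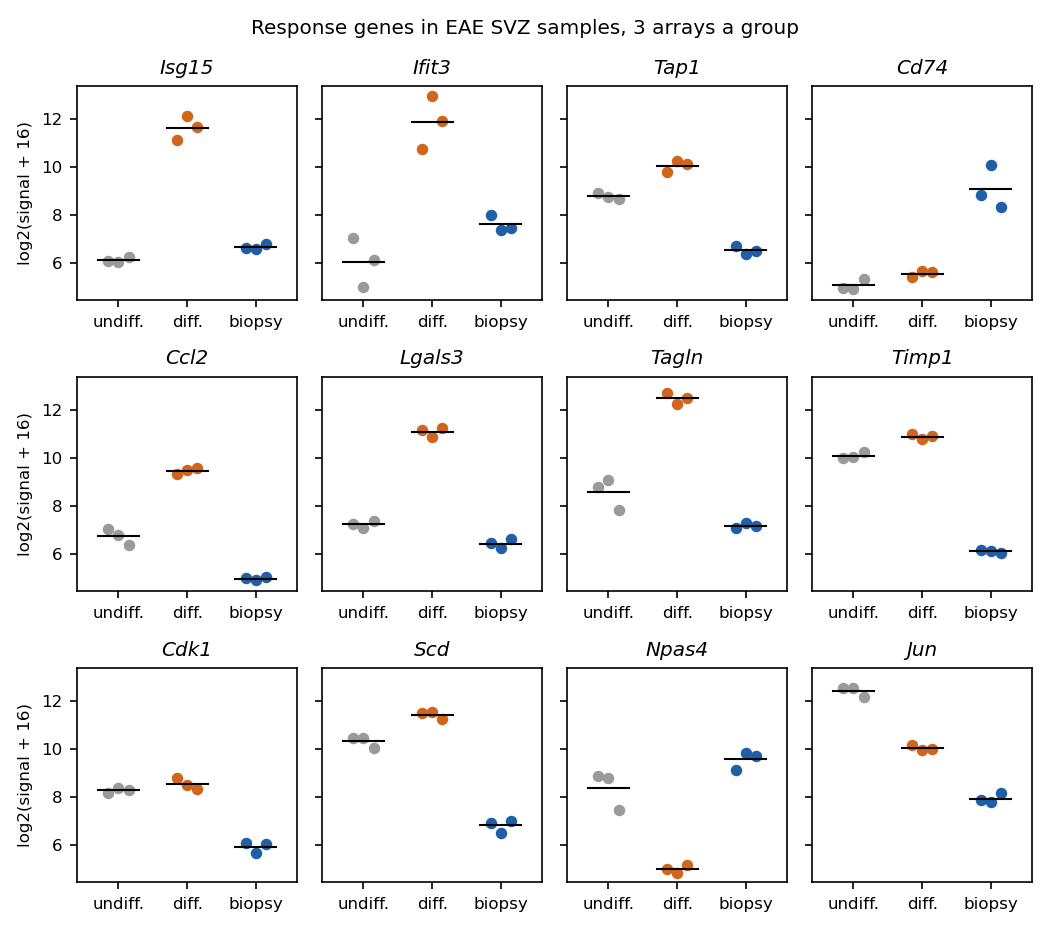
Levels of 12 response genes on each EAE SVZ array, in undifferentiated cultures, differentiated cultures and biopsies, as log2(signal + 16). Points are arrays and lines are group means of 3. Isg15, Ifit3 and Tagln are highest in differentiated cultures, Cd74 in biopsies, and Npas4 is lowest in differentiated cultures.

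Genes of antigen presentation split by class. Of 12 tested MHC class I genes, 11 were lower in biopsies and 1 was not called (median -1.65). Tap1, which carries peptides into the endoplasmic reticulum, read 6.72, 6.39 and 6.51 in biopsies and 9.8, 10.25 and 10.15 in cultures (difference -3.52 ± 0.14, adjusted p = 3.64e-10). The immunoproteasome subunits Psmb9 and Psmb8 differed by -2.58 ± 0.12 and -1.83 ± 0.15. Of 8 tested class II genes, 5 were higher in biopsies, 1 was lower and 2 were not called. Cd74, the invariant chain of class II, read 8.82, 10.08 and 8.35 in biopsies and 5.4, 5.65 and 5.63 in cultures (difference 3.53 ± 0.32, adjusted p = 9.39e-07). RT1-Da, a class II alpha chain, read 8.25, 9.11 and 7.48 in biopsies and 5.39, 5.36 and 5.5 in cultures. Biopsy array 2 was the highest for both. RT1-DMa, which loads class II molecules, was lower in biopsies (-0.88 ± 0.1). The class II activator Ciita was not tested.

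Microglia genes were higher in the tissue. Of 21 tested, 18 were higher in biopsies, 2 lower and 1 not called (median 1.13). Ctss, a cathepsin of microglia, read 10.81, 10.9 and 11 in biopsies and 6.33, 8.01 and 7.04 in cultures (difference 3.77 ± 0.3, adjusted p = 3.09e-07). Csf1r and Cx3cr1, receptors that microglia need and carry, differed by 2.33 ± 0.34 and 2.2 ± 0.34, and P2ry13, a purine receptor, by 2.97 ± 0.11. Olfml3 and Sall1 were lower in biopsies by 3.14 and 1.24 on average, and which cells carried them was not tested. Culture array 2 was the highest culture for Ctss, Csf1r and Cx3cr1. Undifferentiated cultures read 4.66, 5.02 and 4.88 for Ctss.

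Macrophage activation genes went both ways, with 8 of 18 higher in biopsies, 7 lower and 3 not called (6 and 6 with quantile normalization). Over all probe sets 31.1% were higher and 43.6% lower. Lgals3, a galectin of activated phagocytes and astrocytes, read 6.46, 6.24 and 6.61 in biopsies and 11.19, 10.88 and 11.27 in cultures (difference -4.68 ± 0.13). Lpl, a lipase, was higher in biopsies by 1.67 ± 0.18. Of 26 T cell genes 10 were tested, 6 higher in biopsies and 4 not called, and the list's mean level was 6.88 to 7.18 in biopsies against 6.46 to 6.63 in cultures. Cd4, which rat macrophages and microglia also carry, read 6.64, 7.25 and 6.57 in biopsies against 5.03, 4.97 and 5.02. Cd3e was not called, Cd3d, Cd3g, Cd8a and Cd8b were too dim to test, and with quantile normalization 3 of the T cell genes were called higher and 1 lower. Among chemokines, Ccl2, which attracts monocytes, read 4.99, 4.9 and 5.03 in biopsies, near the median background, and 9.33, 9.5 and 9.58 in cultures. Cx3cl1, a chemokine of neurons, had the opposite sign (2.52 ± 0.13).

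Enzymes of cholesterol and fatty acid synthesis were nearly all lower in biopsies, 23 of 24 (median -1.41). Scd, which desaturates fatty acids, read 6.94, 6.51 and 7.02 in biopsies and 11.49, 11.56 and 11.26 in cultures (difference -4.61 ± 0.14, adjusted p = 4.4e-11). Idi1 and Dhcr7, enzymes of the sterol pathway, differed by -2.5 ± 0.13 and -2.45 ± 0.11. Fdps, the enzyme that makes farnesyl pyrophosphate, was the exception. It read 10.91, 11.23 and 11.24 in biopsies and 8.62, 8.42 and 8.41 in cultures, 2.64 ± 0.12 higher in biopsies, between sterol enzymes that all had the other sign.

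Immediate early genes fell on both sides. Of 19 tested, 8 were higher in biopsies, 8 lower and 3 not called. Npas4, which neurons switch on upon firing, read 9.14, 9.86 and 9.73 in biopsies and 5.02, 4.85 and 5.15 in cultures (difference 4.57 ± 0.17, adjusted p = 2.26e-10). Arc and Egr3 differed by 3.31 ± 0.19 and 2.52 ± 0.14. Jun, an AP-1 subunit, read 7.87, 7.79 and 8.17 in biopsies and 10.16, 9.96 and 10.01 in cultures. Fos was lower in biopsies too (-1.5 ± 0.2), while its relative Fosb was higher (1.39 ± 0.14) and Junb was not called (0.22 ± 0.16). Nr4a1 and Nr4a3, orphan nuclear receptors, were higher (1.19 ± 0.23 and 0.99 ± 0.19) and Nr4a2 was lower (-0.8 ± 0.1). Also lower was Atf3, a stress factor (difference -3.22 ± 0.14). Both culture stages were unlike here, since Fos read 13.07, 13.13 and 13.01 in undifferentiated cultures. Stress response genes were lower in biopsies for 14 of 17. Hmox1, haem oxygenase, differed by -4.06 ± 0.2 and Atf4, the factor of the integrated stress response, by -1.41 ± 0.1, while Slc7a11, a cystine carrier, was higher (1.37 ± 0.21).

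Energy metabolism showed isoforms of opposite sign. Of 21 genes of hypoxia and glycolysis, 12 were lower in biopsies and 6 higher, with a median of -0.40 that became 0.02 under quantile normalization. Adm, the hormone adrenomedullin, differed by -4.12 ± 0.2 and Pdk1, which holds pyruvate out of mitochondria, by -1.92 ± 0.11. Slc2a3 and Eno2, the glucose carrier and enolase of neurons, were higher by 3.6 ± 0.16 and 2.94 ± 0.12, and Eno1, the general enolase, whose probes are marked as cross-hybridising, was lower (-1.32 ± 0.1).

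BMP and Notch genes fell on both sides, beside 43.6% lower and 31.1% higher over all probe sets. Of 15 tested BMP and Id genes, 8 were lower in biopsies, 2 higher and 5 not called. Id3, a target of BMP that blocks neuronal differentiation, read 8.89, 8.9 and 8.97 in biopsies and 11.84, 11.91 and 11.78 in cultures (difference -2.93 ± 0.096). The ligands Bmp6 and Bmp4 differed by -2.93 ± 0.12 and -2.2 ± 0.14, and the antagonist Nog by -2.32 ± 0.17. The feedback inhibitor Smad7 was higher in biopsies (0.67 ± 0.1). Of 17 Notch genes, 10 were lower, 5 higher and 2 not called. Hes1, a Notch target, differed by -2.11 ± 0.11, while Heyl, another target, was higher by 1.38 ± 0.15.

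Of 9 tested hedgehog genes, 4 were higher in biopsies and 5 lower. The receptor component Smo and the factor Gli3 were lower in biopsies (-1.89 ± 0.099 and -1.09 ± 0.11). The pathway's targets Ptch1, Gli1 and Hhip were higher, by 1.46 ± 0.11, 0.88 ± 0.13 and 1.84 ± 0.12. Ptch1 read 8.61, 8.78 and 8.9 in biopsies and 7.37, 7.34 and 7.21 in cultures, with no overlap. The ligand Shh was not tested. Of 23 Wnt genes, 9 were higher and 9 lower (12 and 8 when scaled to the 75th percentile), with Fzd1, a receptor, at -2.35 ± 0.11, and the target Lef1 at 1.26 ± 0.14. In growth factor signalling 8 of 17 genes were lower, among them the receptors Fgfr1 (-1.94 ± 0.14) and Egfr (-1.12 ± 0.12), and 4 were higher. The share lower was close to the 43.6% over all probe sets, where 31.1% were higher. Among IGF and TGF-beta genes, 9 of 21 were lower, again close to that share, and 5 higher (9 and 9 when scaled to the 75th percentile). Tgfb2, a ligand, was at -2.63 ± 0.12 and Inhba, an activin subunit, at 1.85 ± 0.15.

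Regional factors of the forebrain had no common direction. Of 19 tested, 5 were higher in biopsies, 6 lower and 8 not called, and 9 were higher and 5 lower when scaled to the 75th percentile. Six3, a factor of the anterior forebrain, read 7.29, 7.63 and 7.6 in biopsies and 7.74, 7.61 and 7.71 in cultures, and was not called (interval -0.43 to 0.07). Nkx2-1, a factor of the ventral forebrain, was not called either. Nr2f1 and Emx2, which pattern the cortex, were lower in biopsies by 1.91 and 1.22 on average, and Ebf1, a factor of striatal neurons, was higher by 2.91 ± 0.11.

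The naive samples gave the same comparison in health. There, 5317 of 19239 tested probe sets were higher in biopsies (27.6%) and 6847 lower (35.6%), 63.2% in all. Without naive culture 3, 6583 were higher and 7482 lower (73.1%). The groups did not overlap for 69.9%, and for 81.3% without that array. Of the 6023 probe sets higher in EAE biopsies, 4583 were also called higher in naive biopsies (76.1%, and 86.2% of the naive calls). Of the 8440 lower ones, 6693 were (79.3%, and 97.8%). Without naive culture 3 the shared calls were 5322 (88.4% and 80.8%) and 7250 (85.9% and 96.9%). Of the higher and lower EAE calls, 0 and 4 were called the other way in naive samples, and 1 and 21 without naive culture 3. The 4 were Slc43a2, Cdc42ep4, Tshr and Neu4, and Tshr was not called in naive samples without that array. The 21, found without naive culture 3, included Sox10, a lineage factor of oligodendrocytes, and Bmp4. Without that array Sox10 differed by 1.2 ± 0.14 in naive samples and Bmp4 by 0.76 ± 0.15, against -0.53 and -2.2 in EAE. In naive cultures 1 to 3 Sox10 read 5.98, 6.3 and 8.23, and Bmp4 5.29, 5.84 and 7.65. With all arrays neither was called the other way. These genes were named after their values were seen. All 25 striatal genes were higher in naive biopsies as well (median 4.79, and 4.8 without that array).

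**Figure D4:**
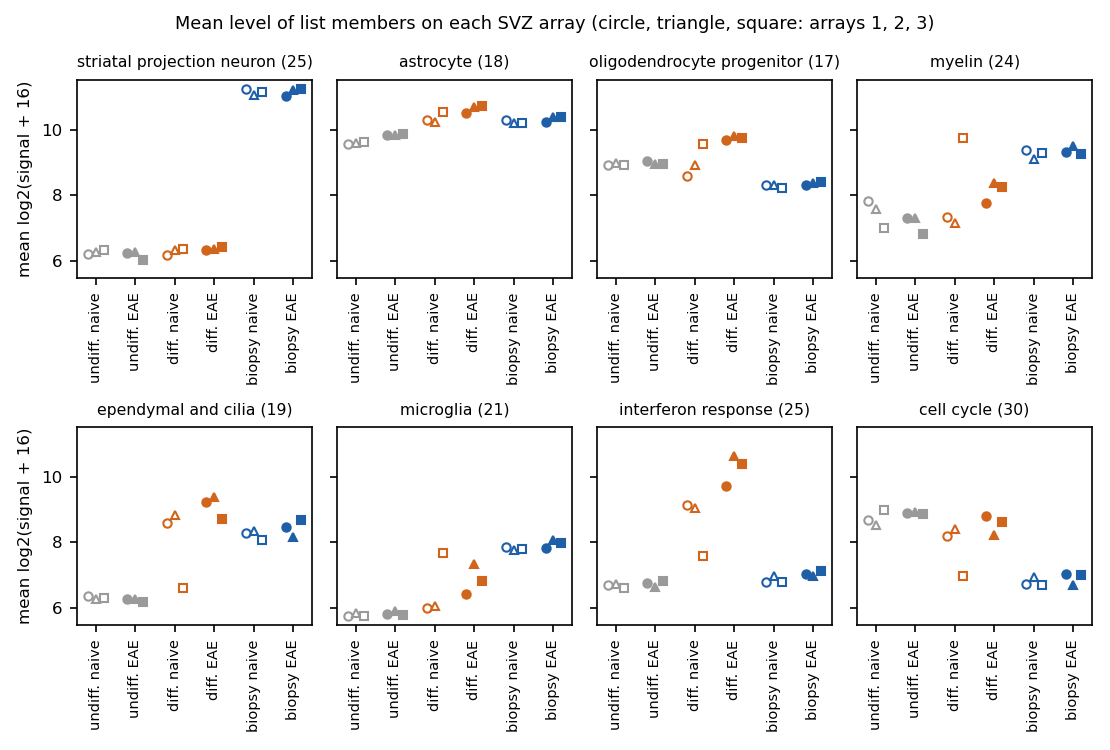
Mean level of 8 gene lists on each SVZ array, as log2(signal + 16), for undifferentiated cultures, differentiated cultures and biopsies. Circles, triangles and squares are arrays 1, 2 and 3, and open symbols are naive. The third naive differentiated culture lies apart in the myelin, microglia, ependymal, interferon and cell cycle lists, and is the highest naive differentiated culture in the progenitor list.

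The difference between biopsy and culture was then compared between EAE and naive samples over 12 arrays. Over 20419 tested probe sets 0 were called (0%). Before adjustment, limma gave 1076 with an unadjusted p below 0.05, close to the share that this limit passes where nothing differs. The methods' t-test called 0. Without naive culture 3, 7 were higher in EAE and 158 lower (0.808%). Cd74 was among the 7. It read 6.61, 6.79 and 6.63 in naive biopsies and 5.34, 5.43 and 5.51 in naive cultures, so the EAE biopsies at 8.82, 10.08 and 8.35 were above both. The EAE excess was 2.27 with all arrays (adjusted p = 0.307) and 2.23 without naive culture 3 (adjusted p = 0.0284). RT1-Da gave 2.25 (adjusted p = 0.307) and 2.37 (adjusted p = 0.0107).

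The 158 included genes of committed oligodendrocyte progenitors. Gpr17 read 7.99, 8.11 and 8.16 in naive biopsies and 7.38, 8.65 and 9.04 in naive cultures, where the EAE cultures read 10.41 to 10.58. Its excess in EAE cultures gave a value of -2.17 with all arrays (adjusted p = 0.319) and -2.51 without naive culture 3 (adjusted p = 0.00301). Bmp4 read 5.29, 5.84 and 7.65 in naive cultures against 8.34, 8.81 and 8.4 in EAE cultures (-2.26, adjusted p = 0.567, and -2.96, adjusted p = 1.47e-05). Without that array, 7 of 17 progenitor genes and 4 of 24 myelin genes were called lower, and 0 of either with it. That array was set apart after its levels over these lists and the interferon list were seen. Calls made without it are thus no independent test of such genes. Over the progenitor list it read 9.57, against 8.59 and 8.91 in the other naive cultures and 9.68 to 9.8 in EAE cultures. Uba7, which activates Isg15 for attachment, gave -2.15 with all arrays (adjusted p = 0.0653) and -2.02 without that one (adjusted p = 0.00295). Ifit3 gave -3.3 (adjusted p = 0.386) and -3.02 (adjusted p = 0.0364). Of the interferon genes tested in naive samples, 21 of 22 were lower in naive biopsies without naive culture 3 (median -2.38) and 16 of 22 with it (median -1.74), where EAE samples gave 24 of 25.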

How the data were processed

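RNA from each sample was purified with RNeasy columns and DNase, labelled with biotin by the WT Terminal Labeling method and hybridised to Affymetrix arrays, per the labels' protocols; the sources used here name neither the array type nor its build. The deposited values are linear intensities. The authors summarised them by PLIER with GC-matched background correction and global median normalization, per the file headers, in Affymetrix Expression Console, per the submitters' processing notes.

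Here, log2(signal + 16) was tested with limma 3.58.1 in R 4.3.3 on the 27342 main probe sets, keeping those whose signal exceeded 50 on 3 or more of the arrays fitted. A probe set was called at a Benjamini-Hochberg adjusted p up to 0.05 with a fold of 1.2 or more; the design text states the same limits. The biopsy and culture groups were compared within EAE, within naive, and between the 2 differences. Sequences were counted in Python 3.11.15 with pandas 2.3.3, and plots were drawn with matplotlib 3.10.9. The scripts were tested on simulated data.

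Of the main probe sets, 19863 carried 1 gene symbol, 1396 several and 6083 none; 18591 of the first matched the RefSeq table (GRCr8), which updated 5605 symbols. A probe set with several symbols names no gene here. A gene with several probe sets was read from the one with the highest mean. Named genes are the 15 called genes of largest difference in each direction whose groups did not overlap, and per list up to 8 called genes, those against the list's majority and up to 4 not called. For the difference between EAE and naive, the rule named the 5 with the smallest p in each direction. The members and the 40 lists were chosen with earlier results of these data known, so lists are described by counts and medians only. Replicate numbers were not used as pairs in the main fits. Same-number correlations of deviations from group means were 0.044, -0.102 and -0.053 for EAE and 0.097, 0.132 and 0.057 for naive. Those of unlike numbers ran from -0.178 to 0.21 for EAE and from -0.124 to 0.016 for naive, below the same-number naive values. Deviations from means of 3 arrays cannot decide whether samples were paired. Alternatives were other offsets, filters, scalings, fits and left-out arrays. Setting the array medians equal, and leaving naive differentiated culture 3 out of the naive lists, overlaps and the comparison with EAE, were chosen after seeing the data. Some genes that the rule names are not reported here.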

Additional observations from a re-analysis of the deposited data

Results flagged for a closer look

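Neu4, a sialidase, had biopsy minus culture differences of opposite sign in the 2 conditions. In EAE it read 7.51, 7.64 and 7.43 in biopsies and 7.91, 7.70 and 8.20 in cultures, a difference of -0.41 ± 0.13. In naive samples it read 7.46, 7.53 and 7.65 in biopsies and 6.43, 6.71 and 6.47 in cultures, a difference of 1.01 ± 0.12. The biopsies of the 2 conditions overlapped and the cultures did not. The test of the difference between EAE and naive missed the limit (limma adjusted p = 0.0653). Without naive culture 3, the array that stood apart, the naive difference was 0.98 ± 0.13 and the test passed the limit (limma adjusted p = 0.00512).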

How the results depend on the processing

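For EAE, calls numbered 10196 higher and 8624 lower without a signal filter, and 3893 and 7932 with signals above 100, against 6023 and 8440; the calls that were higher made up 54.2% and 32.9% against 41.6%. Scaling to the 75th percentile gave 53.4% and equal array medians 31.6%. Quantile normalization gave 5404 and 7536, and the methods' t-test 5046 and 7844. Leaving out 1 array gave 5257 to 6500 higher and 7991 to 8583 lower. For naive, calls without a filter were 8669 higher (55.3%), scaling to the 75th percentile gave 50.3% and equal medians 28.2%, against 43.7%, and leave-outs ranged from 4333 to 6583 higher and 5782 to 7482 lower. For the difference between EAE and naive, a fit of all 18 groups called 9 (1 higher, 8 lower), and leave-outs called 0 to 165, 0 to 7 higher and 0 to 158 lower; 165 came without naive culture 3, 28 without EAE culture 1 and 16 without naive culture 2. Gsn in EAE turned from -0.39 to 0.10 with quantile normalization; the cause was not tested. A replicate block gave 6108 and 8472 for EAE, 5126 and 6634 for naive and 0 for the difference. Over 435 named genes in EAE, 6208 recomputed values kept direction and call, 131 lost the call and 124 gained it. Genes near background have understated differences.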
